A study of Mus musculus with 12 samples.

Results

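The genes described here encode the proton pump, the proteases, the glycosidases and the membrane proteins of the lysosome, read in mouse hypothalamus RNA. They were taken by name from the count table: protein-coding genes whose symbol begins with Atp6v0 or Atp6v1, all cathepsins with a 1-letter suffix, and Lamp1, Lamp2, Rilp, Rab7, Tfeb, Npc1, Npc2, Gla, Gaa, Glb1, Hexa and Mcoln1. The names matched 53 of the 78334 genes in the table, and 45 of them had at least 10 reads in total over the 12 libraries, as 36164 of all genes did. The rule uses names and the minimum of 10 reads, and the names were listed with results of these libraries known.

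Lysosomes are acidic compartments in which proteins, lipids and glycans are degraded. The vacuolar ATPase (V-ATPase) acidifies them: its V1 domain, on the cytosolic face, hydrolyses ATP, and its V0 domain, in the membrane, carries the protons, and several subunits are encoded by more than 1 gene with different tissue patterns. In the brain the pump also acidifies synaptic vesicles, where the proton gradient drives transmitter loading. Tfeb is a transcription factor that binds a palindromic E-box known as the CLEAR element in front of many lysosomal genes, and Rilp is the effector through which the GTPase Rab7 couples late endosomes and lysosomes to dynein.

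The samples were whole hypothalami of male C57BL/6 mice that were 8 weeks old at the start, and every animal received daily gavage for 28 days from an age of 16 weeks. The sources differ in wording on whether the 8 weeks of high-fat diet are its total or precede the gavage. The control group (C, n = 3) stayed on standard chow and the obesity group (Ob, n = 3) was fed a high-fat diet with 60% of its energy from fat, and both were gavaged with vehicle. Animals on the same diet were given 2.25 mg/kg of resveratrol (Ob + RSV, n = 3), 200 mg/kg of aged garlic extract (Ob + EAE, n = 2) or 50 mg/kg of curcumin (Ob + CUR, n = 1). Each model is a diet given to 1 sex of 1 inbred strain, and whether a library came from 1 animal is not given in the sources used here for Ob + EAE and Ob + CUR. If libraries of a group did not come from separate animals, the p-values measure technical spread only.

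Libraries held 15655156 to 26284661 counted reads, and 24450 to 38081 genes had reads. C replicate 2, Ob replicate 1 and Ob + RSV replicate 2 had the fewest genes with reads (25979, 26123 and 24450). The 2 Ob + EAE libraries and the Ob + CUR library lay closer to one another than any other pair of libraries. Their median squared difference over genes was 4.64 to 6.58 times what counting noise gives, against 7.14 to 86.6 times for all other pairs. Whether these 3 libraries were prepared apart from the rest is not given in the labels, so treatment and preparation cannot be told apart for them. All 14 hypothalamic marker genes examined, Pomc, Agrp and Hcrt among them, had reads, with a summed level of 1163 to 3352 CPM (reads of a gene per 1000000 counted reads of the library) in 11 libraries and 454 CPM in Ob + CUR. The genes of this list did not all move the same way in Ob + CUR, as given with the other markers below. In whole tissue, fewer cells of a type and less RNA per cell cannot be told apart.

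The letters of the Tfeb-bound E-box stood in front of several of these genes. The motif CACGTG, which reads the same on both strands, stood in the window from 250 bases before to 50 bases after the RefSeq gene start (GRCm38.p6) in 13 of the 42 members that had such a sequence (31%), against 8.09% of 27025 genes. Its longer form TCACGTGA, which contains the first motif, stood in 7 of the 42 members (16.7%) against 1.12% of genes. The 150 bases before the gene start are printed below, 5′ to 3′ along the gene's strand and with CACGTG in capitals, for the 4 members with the motif that had the most reads in this tissue, and for Atp6v0b, which was added after its values were seen. Gaa lies after chr11:119267813-119267962 on the plus strand, Atp6v1a after chr16:44139260-44139409 on the minus strand, Lamp1 after chr8:13159011-13159160 on the plus strand, Ctsd after chr7:142387828-142387977 on the minus strand and Atp6v0b after chr4:117887330-117887479 on the minus strand.
Gaa: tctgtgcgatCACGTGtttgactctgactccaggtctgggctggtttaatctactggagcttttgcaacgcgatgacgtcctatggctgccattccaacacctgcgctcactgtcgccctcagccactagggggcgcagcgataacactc
Atp6v1a: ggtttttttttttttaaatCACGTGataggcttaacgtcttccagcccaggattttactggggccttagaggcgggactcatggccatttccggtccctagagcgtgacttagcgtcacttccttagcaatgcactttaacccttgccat
Lamp1: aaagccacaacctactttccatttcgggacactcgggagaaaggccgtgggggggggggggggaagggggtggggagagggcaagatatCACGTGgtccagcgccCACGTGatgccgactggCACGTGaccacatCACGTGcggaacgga
Ctsd: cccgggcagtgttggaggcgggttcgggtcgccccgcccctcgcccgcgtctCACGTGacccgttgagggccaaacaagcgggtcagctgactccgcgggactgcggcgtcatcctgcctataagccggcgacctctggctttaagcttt
Atp6v0b: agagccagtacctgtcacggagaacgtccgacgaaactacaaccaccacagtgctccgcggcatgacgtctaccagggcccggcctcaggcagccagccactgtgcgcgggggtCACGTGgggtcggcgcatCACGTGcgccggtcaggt

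Lamp1 held 4 copies of the motif, beginning 61, 45, 28 and 15 bases before the gene start, and Atp6v0b held 2, at 36 and 18 bases. Gaa and Atp6v1a held 1 copy each, at 140 and 131 bases. A second copy of Ctsd lay outside the printed stretch, at 245 bases. The motif was also found in the windows of Atp6v0d1, Ctsl, Ctsa, Ctsf, Mcoln1, Glb1, Atp6v0e and Gla, and not in those of Rilp or Atp6v1f. The only copy in the window of Atp6v0e lay after the gene start, at 3 bases. A match of letters is a description and says nothing of whether a factor bound there in these animals.

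The hypothalamus expressed the V-ATPase mainly through 1 paralogue of each duplicated subunit except G. Levels between genes are given as CPM per kilobase of exon, and the shares of paralogues are computed on that scale. Among the V0 genes, the a subunit, which anchors the stator and sets where the pump is placed, came from Atp6v0a1 at 74.9% to 84.3% of the 4 isoforms together and from Atp6v0a2 at 6.87% to 10.7%. The a3 isoform is encoded by Tcirg1, which the choice by name leaves out and which is counted here from the list of other lysosome genes, and it gave 5.76% to 15.4%, above Atp6v0a2 in some libraries and below it in others. Atp6v0a4, an isoform best known from kidney, had 64 reads in all, from 0 to 0.827 CPM per library. Atp6v0d1, the d subunit that couples the rotor, had a mean of 111 CPM per kilobase, and its paralogue Atp6v0d2, known from osteoclasts, had 8 reads in the whole series. The small e subunit came from Atp6v0e2 at 90.5% to 95.5%, and Atp6v0e gave the rest. The proteolipids of the rotor ring, Atp6v0c and Atp6v0b, had means of 97.1 and 78.1 CPM per kilobase.

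By library, Atp6v0a1 stood above Atp6v0a2 and Atp6v0a4 everywhere, and Atp6v0e2 above Atp6v0e. Atp6v0a1 was at 551, 621 and 556 CPM (C), 476, 557 and 506 CPM (Ob), 443, 393 and 504 CPM (Ob + RSV), 595 and 576 CPM (Ob + EAE) and 552 CPM (Ob + CUR). For Atp6v0a2 the levels were 62.8, 73.9 and 47.2 CPM (C), 43.8, 58.0 and 51.2 CPM (Ob), 54.4, 51.5 and 61.2 CPM (Ob + RSV), 66.0 and 67.6 CPM (Ob + EAE) and 72.7 CPM (Ob + CUR). The range of Atp6v0a1 in Ob + RSV lay below that in C, and Atp6v0a2 overlapped between all groups of 3. Atp6v0a4 was at 0.128, 0.797 and 0.335 CPM (C), 0.0515, 0.220 and 0.128 CPM (Ob), 0, 0.827 and 0.118 CPM (Ob + RSV), 0.237 and 0.139 CPM (Ob + EAE) and 0.215 CPM (Ob + CUR), with its highest values in C replicate 2 and Ob + RSV replicate 2, which were among the libraries with the fewest genes with reads. Atp6v0d1 was at 206, 184 and 185 CPM (C), 223, 238 and 197 CPM (Ob), 249, 193 and 172 CPM (Ob + RSV), 186 and 167 CPM (Ob + EAE) and 181 CPM (Ob + CUR). Atp6v0e2 was at 266, 247 and 276 CPM (C), 277, 274 and 272 CPM (Ob), 311, 207 and 281 CPM (Ob + RSV), 251 and 234 CPM (Ob + EAE) and 238 CPM (Ob + CUR). Both overlapped between C, Ob and Ob + RSV, as did Atp6v0e, at 28.1, 25.8 and 20.5 CPM (C), 35.6, 26.5 and 25.4 CPM (Ob), 23.7, 33.9 and 24.0 CPM (Ob + RSV), 20.7 and 18.2 CPM (Ob + EAE) and 22.0 CPM (Ob + CUR).

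The V1 genes showed the same reliance on 1 paralogue, with the G subunit as the exception. Atp6v1b2 gave 99.85% to 100% of the B subunit, which forms the catalytic head together with Atp6v1a, and the renal isoform Atp6v1b1 had 57 reads in all. Atp6v1b1 was at 0, 0.626 and 0 CPM in C, at 0, 0 and 0.256 CPM in Ob, at 0, 0 and 0.823 CPM in Ob + RSV, at 0.331 and 0.511 CPM in Ob + EAE and at 0.430 CPM in Ob + CUR. The E subunit of the stalk came from Atp6v1e1 at 99.3% to 100%. Its testis-type paralogue Atp6v1e2 had 14 reads, of which 10 came from C replicate 2. Atp6v1c1 gave 93.2% to 98.2% of the C subunit, and Atp6v1c2 the rest. Atp6v1b2 was at 602, 639 and 606 CPM (C), 488, 511 and 576 CPM (Ob), 595, 518 and 661 CPM (Ob + RSV), 639 and 589 CPM (Ob + EAE) and 578 CPM (Ob + CUR), and all 3 Ob libraries lay below those of C. Atp6v1e1 was at 248, 270 and 242 CPM (C), 346, 254 and 270 CPM (Ob), 290, 294 and 261 CPM (Ob + RSV), 198 and 173 CPM (Ob + EAE) and 186 CPM (Ob + CUR). The Ob + EAE and Ob + CUR libraries held its lowest values. Atp6v1c1 was at 198, 179 and 229 CPM (C), 197, 178 and 221 CPM (Ob), 194, 171 and 222 CPM (Ob + RSV), 198 and 188 CPM (Ob + EAE) and 189 CPM (Ob + CUR), and its groups overlapped. Atp6v1c2 was at 3.41, 3.02 and 6.52 CPM (C), 5.15, 3.69 and 4.92 CPM (Ob), 2.28, 1.24 and 2.65 CPM (Ob + RSV), 4.07 and 4.27 CPM (Ob + EAE) and 3.22 CPM (Ob + CUR). Atp6v1e2 was at 0.0426, 0.569 and 0 CPM (C), 0, 0 and 0 CPM (Ob), 0, 0 and 0 CPM (Ob + RSV), 0.0473 and 0 CPM (Ob + EAE) and 0.0859 CPM (Ob + CUR).

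The G subunit, a part of the stalk, was shared between Atp6v1g2, the form known from neurons, and the more widely expressed Atp6v1g1. Atp6v1g2 was at 285, 260 and 413 CPM in C, at 288, 285 and 372 CPM in Ob, at 282, 200 and 358 CPM in Ob + RSV, at 291 and 266 CPM in Ob + EAE and at 270 CPM in Ob + CUR. Atp6v1g1 was at 73.7, 59.5 and 118 CPM (C), 99, 72.5 and 104 CPM (Ob), 85.2, 58.5 and 75.1 CPM (Ob + RSV), 56.9 and 48.3 CPM (Ob + EAE) and 54.2 CPM (Ob + CUR). The share of Atp6v1g2 in the G subunit was 61.2% to 66.4% in C, 56.8% to 64.0% in Ob and 59.9% to 68.3% in Ob + RSV. In the Ob + EAE libraries that share came to 69.8% and 71.4%, and in the Ob + CUR library to 69.3%. The 3 libraries of Ob + EAE and Ob + CUR therefore lay above all 9 others in this share, which was not tested. No read was assigned to the third paralogue, Atp6v1g3, a renal form. The single-copy V1 genes had means of 88.1 (Atp6v1f), 61.8 (Atp6v1a), 42.2 (Atp6v1d) and 17.0 (Atp6v1h) CPM per kilobase. Atp6v1fnb, which the name pattern brought in because it lies next to Atp6v1f and which is no known pump subunit, had 21 reads.

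Ctsd and Ctsb, an aspartic and a cysteine protease, were the most abundant cathepsins, with means of 104 and 100 CPM per kilobase. Ctss, a cysteine protease known from microglia, followed at 34.1 CPM per kilobase, ahead of Ctsz (25.0), Ctsa (20.4), Ctsf (17.0) and Ctsl (15.3). Ctso was at 5.93, Ctsh at 1.95, the osteoclast protease Ctsk at 1.32 and Ctsc, which activates granule proteases, at 0.865 CPM per kilobase. The lymphocyte protease Ctsw had 83 reads, the neutrophil protease Ctsg 8 and Ctse 6, and Ctsj, Ctsm, Ctsq and Ctsr, rodent cathepsins known from placenta, had none. Markers of the cells that use Ctsg and Ctsw were near 0 as well: the summed level of 7 neutrophil and mast cell genes was 0.0588 to 6.49 CPM and that of 6 cytotoxic lymphocyte genes 0 to 0.670 CPM. All 11 microglial marker genes had reads, and their sum was 273 to 357 CPM.

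The most abundant member by far was Gaa, the acid alpha-glucosidase that degrades lysosomal glycogen, with a mean of 281 CPM per kilobase. Its level was 1513, 1689 and 1063 CPM in C, 1360, 1581 and 1062 CPM in Ob, 1416, 993 and 876 CPM in Ob + RSV, 1580 and 1508 CPM in Ob + EAE and 1510 CPM in Ob + CUR. The libraries of C and Ob overlapped. Lamp1, the main glycoprotein of the lysosomal membrane, came next at 125 CPM per kilobase, with 345, 413 and 221 CPM in C, 421, 352 and 276 CPM in Ob, 374, 316 and 328 CPM in Ob + RSV, 325 and 310 CPM in Ob + EAE and 347 CPM in Ob + CUR. The other glycosidases were lower, at 31.9 (Hexa, the alpha subunit of the enzyme that degrades GM2 ganglioside), 10.6 (Glb1, beta-galactosidase) and 3.78 (Gla, alpha-galactosidase A) CPM per kilobase.

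Among the other membrane and trafficking genes, Rab7 had a mean of 84.7 CPM per kilobase and Npc2, a soluble cholesterol carrier of the lumen, 16.3. The cation channel Mcoln1 was at 8.64, Lamp2 at 6.53 and Npc1, the membrane protein that passes cholesterol out of the lysosome, at 4.94 CPM per kilobase. Tfeb was at 2.44 and Rilp at 1.64 CPM per kilobase, the latter from 615 reads in all. When the members were ordered by CPM without regard to length, 7 of the 10 most abundant stayed among the 10.

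**Figure D1:**
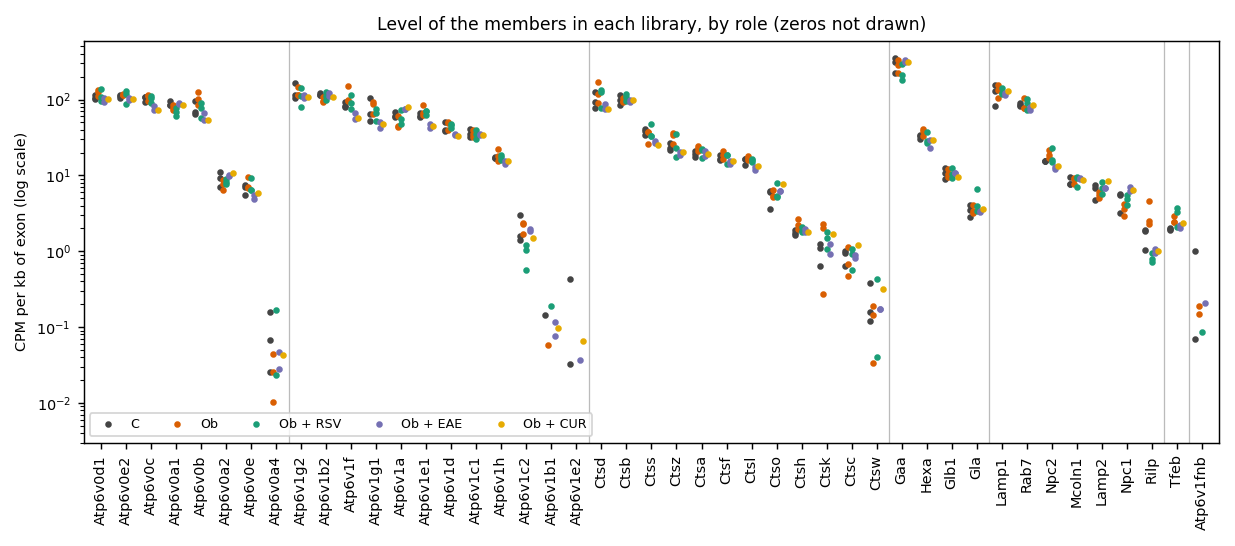
Level of the 45 members with at least 10 reads in each library, in CPM per kilobase of exon on a log axis, ordered by role and then by mean level, with 1 point per library coloured by group. Gaa stands highest, at a mean of 281, and Atp6v1b1, Atp6v0a4 and Atp6v1e2 lie lowest, at 0.0566, 0.0535 and 0.0476.

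Some of these counts could hold reads of other genes. The exons of 20 tested members overlap those of another gene, for 4 of them on the same strand, and the strand setting of the counting is not given in the sources used here. Atp6v1c2 (898 reads) overlaps Pdia6 (36599 reads), Npc1 (13885) overlaps Rmc1 (8351), Ctsz (8889) overlaps Nelfcd (15478), and Ctsw (83) overlaps Fibp (15571), each on opposite strands. The processed pseudogene Atp6v0c-ps2 was assigned 96932 reads and Atp6v0c itself 80542, so the level of Atp6v0c is uncertain. Rab7-ps1 took 6074 reads against 54109 for Rab7. Rilp, Atp6v1f, Atp6v1g1, Tfeb and Gaa overlap no annotated exon of another gene.

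The comparison of Ob with C asks what the high-fat diet did. No member was called in it by edgeR or DESeq2. A call was an adjusted p under 0.05 with a log2 fold change (log2FC) of at least 1 in either direction. By edgeR, no gene of the 33534 tested was called (0%). The share of all genes that DESeq2 called in the comparisons among C, Ob and Ob + RSV is not given here. At an unadjusted p under 0.05 there were 2 members of 45 (4.44%, both higher in Ob) against 2.75% of all genes. DESeq2 also gave 2 (against 2.38% of all genes), of which 1 was shared with edgeR. Of the 45 log2FC values, 31 were above 0 and 14 below, with a median of 0.11 against -0.0034 over all genes. The levels scaled by TMM (trimmed mean of M-values) of the 3 Ob and 3 C libraries did not overlap for 6 members (13.3%, with Atp6v1f, Rilp, Tfeb, Npc2 and Ctsh higher in Ob and Atp6v1b2 lower) against 7.64% of all genes. Without Ob replicate 1, the count under an unadjusted p of 0.05 was 0, and the share of all genes fell to 0.769%.

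Rilp had the largest log2FC of the members with more than 100 reads. It was at 1.66, 2.96 and 3.02 CPM in C and at 7.32, 3.96 and 3.64 CPM in Ob, so that every Ob library lay above every C library and Ob replicate 1 stood well above the rest. The log2FC was 1.03 (SE 0.54, unadjusted p = 0.0644, adjusted p = 1, edgeR's quasi-likelihood test), and 0.61 without Ob replicate 1. The study selected Rilp on these same libraries, so its pattern here is not independent evidence.

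Atp6v0b, a proteolipid of the V0 ring, was at 138, 130 and 196 CPM in C and at 258, 210 and 173 CPM in Ob, with overlapping groups (log2FC 0.52, SE 0.23, unadjusted p = 0.0327, adjusted p = 1). Atp6v1f, the F subunit of the central stalk, was at 87.9, 85.2 and 99 CPM in C and at 161, 104 and 103 CPM in Ob, and the groups did not overlap (log2FC 0.48, SE 0.23, unadjusted p = 0.0420, adjusted p = 1). Without Ob replicate 1 its log2FC was 0.21. Ctsz, a carboxypeptidase, was at 38.0, 33.1 and 30.8 CPM in C and at 52.0, 48.3 and 37.1 CPM in Ob (log2FC 0.48, SE 0.25, unadjusted p = 0.0637, adjusted p = 1), with C replicate 1 just above the lowest Ob library.

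Resveratrol was compared with untreated obesity to see what the compound added on the diet, and the 2 comparisons share the Ob libraries. Neither edgeR nor DESeq2 called a member in Ob + RSV vs. Ob, and edgeR called 0% of all genes. At an unadjusted p under 0.05 there were 3 members (6.67%, all lower in Ob + RSV) against 3.16% of all genes. DESeq2 also gave 3, against 2.86% of all genes. Without Ob replicate 1, the count by edgeR was 1 (2.22%), and the share of all genes fell to 1.501%. The median log2FC of the members was -0.08 against 0.0 over all genes, with 15 values above 0 and 29 below, and it was 0.0023 without C replicate 2, Ob replicate 1 and Ob + RSV replicate 2 together. Groups did not overlap for 4 members (8.89%) against 6.76% of all genes: Rilp, Atp6v1c2 and Ctsh were lower and Lamp2 higher in Ob + RSV, the last 2 only after TMM scaling.

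Rilp was at 1.48, 1.15 and 1.23 CPM in Ob + RSV, against 7.32, 3.96 and 3.64 CPM in Ob. All 3 treated libraries lay below all Ob libraries and also below all C libraries. The log2FC against Ob was -1.98 (SE 0.55), with the smallest unadjusted p of the members (0.00120), and the adjusted p was 1. Leaving out single libraries gave log2FC values of -2.19 to -1.55, and the adjusted p was 0.495 at its lowest. The level in Ob enters both this comparison and that with C.

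Atp6v1c2, the minor C subunit of the V1 domain, was at 5.15, 3.69 and 4.92 CPM in Ob and at 2.28, 1.24 and 2.65 CPM in Ob + RSV, with no overlap (log2FC -1.19, SE 0.50, unadjusted p = 0.0254, adjusted p = 1). Its share of the C subunit was 1.84% to 2.98% in Ob + RSV and 4.17% to 6.82% in the 9 other libraries. Atp6v1c1, its major paralogue, was at 197, 178 and 221 CPM in Ob and at 194, 171 and 222 CPM in Ob + RSV. Atp6v0b was at 187, 159 and 116 CPM in Ob + RSV, and overlapped its Ob levels of 258, 210 and 173 CPM (log2FC -0.51, SE 0.23, unadjusted p = 0.0344, adjusted p = 1). Npc1 was at 32.6, 47.5 and 40.3 CPM in Ob and at 46.1, 56.0 and 62.0 CPM in Ob + RSV (log2FC 0.41, SE 0.23, unadjusted p = 0.0930, adjusted p = 1), and 1 library of each group crossed.

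Against lean controls, Ob + RSV had no member called by edgeR or DESeq2 (edgeR called 0% of all genes). At an unadjusted p under 0.05 there were 2 members (4.44%, 1 in each direction) against 2.87% of all genes, and 3 by DESeq2 (6.67%, against 2.70%). The median log2FC was 0.02, with 28 values above 0 and 17 below. Groups did not overlap for 4 members (8.89%) against 5.39% of all genes: Tfeb was higher in Ob + RSV, and Atp6v1c2, Rilp and Atp6v0a1 were lower. Tfeb, the regulator, was at 11.2, 11.3 and 10.9 CPM in C, at 13.8, 16.3 and 13.8 CPM in Ob and at 18.5, 21.4 and 11.7 CPM in Ob + RSV. The log2FC of Tfeb against C was 0.63 (SE 0.28, unadjusted p = 0.0311, adjusted p = 1), and Ob + RSV replicate 3 stood apart from the 2 others, near C. Atp6v1c2 had 3.41, 3.02 and 6.52 CPM in C (log2FC -1.05, SE 0.50, unadjusted p = 0.0446, adjusted p = 1). Rilp lay below C with a log2FC of -0.96 (SE 0.55, unadjusted p = 0.0908, adjusted p = 1). Atp6v1e2 had 11 reads in C and 0 in Ob + RSV, where a count of 0 allows up to 0.0461 CPM over the group, and its fitted fold is not given (unadjusted p = 0.0809, adjusted p = 1).

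**Figure D2:**
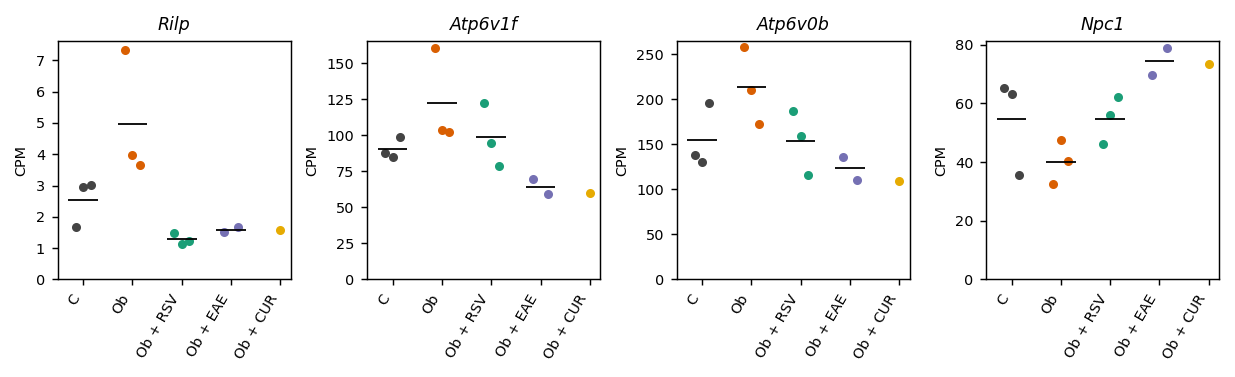
CPM of Rilp, Atp6v1f, Atp6v0b and Npc1 in each library by group, on linear axes that begin at 0, with points for libraries and a line for the mean of each group with more than 1 library. Rilp is highest in Ob, at 3.64 to 7.32 CPM, and the Ob + EAE and Ob + CUR libraries lie lowest for Atp6v1f and highest for Npc1.

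Ob + EAE vs. Ob, the comparison of the aged garlic extract with untreated obesity, had the most members under an unadjusted p of 0.05. A single member was called, Atp6v1f, lower in Ob + EAE (2.22% of 45), against 1.84% of all 36164 genes. At an unadjusted p under 0.05 there were 15 members (33.3%), against 13.4% of all genes. Of these, 13 were lower in Ob + EAE (28.9%, against 6.48% of all genes that were lower) and 2 were higher (4.44%, against 6.87%). The median log2FC of the members was -0.24 against 0.05 over all genes, with 14 values above 0 and 31 below, and the libraries did not overlap for 28 members (62.2%, 22 of them lower) against 38.8% of all genes. The count of 15 rested in part on single libraries: it was 7 without Ob replicate 1 (15.6%, against 8.34% of all genes), 4 without Ob + EAE replicate 2 (8.89%, against 5.36%) and 8 without Ob + EAE replicate 1 (17.8%, against 8.71%). Without C replicate 2, Ob replicate 1 and Ob + RSV replicate 2 together it was 9 of 43 members (20.9%, against 10.3%).

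Atp6v1f was at 161, 104 and 103 CPM in Ob and at 70.0 and 59.0 CPM in Ob + EAE, and both treated libraries lay below all Ob libraries. The log2FC was -1.002 (SE 0.25, unadjusted p = 0.000404, adjusted p = 0.0288, edgeR's quasi-likelihood test). The call sat at the minimum on log2FC and was lost without Ob replicate 1 (log2FC -0.68, adjusted p = 0.331), without Ob + EAE replicate 1 (-1.11, adjusted p = 0.148) and without Ob + EAE replicate 2 (-0.85, adjusted p = 0.689), whereas the sign held in each. The call was also lost with upper quartile scaling (-0.99, adjusted p = 0.0324), with a filter by edgeR's filterByExpr (adjusted p = 0.0798), with a minimum of 1 read, with the 2 groups alone (adjusted p = 0.0541), without Ob + CUR and without the 3 libraries with the fewest genes with reads (-0.71, adjusted p = 0.370). DESeq2 called it (adjusted p = 0.00759).

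The next members by p passed no adjusted threshold. Atp6v0b was at 136 and 111 CPM in Ob + EAE, below the Ob levels of 173 to 258 CPM (log2FC -0.87, SE 0.25, unadjusted p = 0.00190, adjusted p = 0.0654). Npc1 was at 69.6 and 79.0 CPM, above the Ob levels of 32.6 to 47.5 CPM (log2FC 0.82, SE 0.24, unadjusted p = 0.00201, adjusted p = 0.0672). Atp6v1g1 was at 99, 72.5 and 104 CPM in Ob and at 56.9 and 48.3 CPM in Ob + EAE (log2FC -0.87, SE 0.26, unadjusted p = 0.00237, adjusted p = 0.0737). Its paralogue Atp6v1g2 had a log2FC of -0.24. Rilp was at 1.52 and 1.67 CPM in Ob + EAE, below all Ob libraries (log2FC -1.72, SE 0.62, unadjusted p = 0.00897, adjusted p = 0.147).

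The other members under an unadjusted p of 0.05 came from several roles. They were, with the log2FC of each, Atp6v1e1 (-0.72), Atp6v1d (-0.49), Atp6v0c (-0.54) and Atp6v0e (-0.66) of the pump, the cathepsins Ctsz (-0.79), Ctsd (-0.72) and Ctsl (-0.54), the enzyme subunit Hexa (-0.60) and the cholesterol carrier Npc2 (-0.65). Atp6v1a, the catalytic subunit, went the other way (0.55), at 270, 261 and 364 CPM in Ob and 454 and 457 CPM in Ob + EAE. By role, the median log2FC was -0.32 over 8 V0 genes, -0.22 over 12 V1 genes, -0.35 over 12 cathepsins, -0.12 over 4 glycosidases and -0.22 over 7 membrane and trafficking genes. Subunits of the V1 domain thus did not share a direction, with Atp6v1f lower and Atp6v1a higher in both Ob + EAE libraries than in any Ob library.

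**Figure D3:**
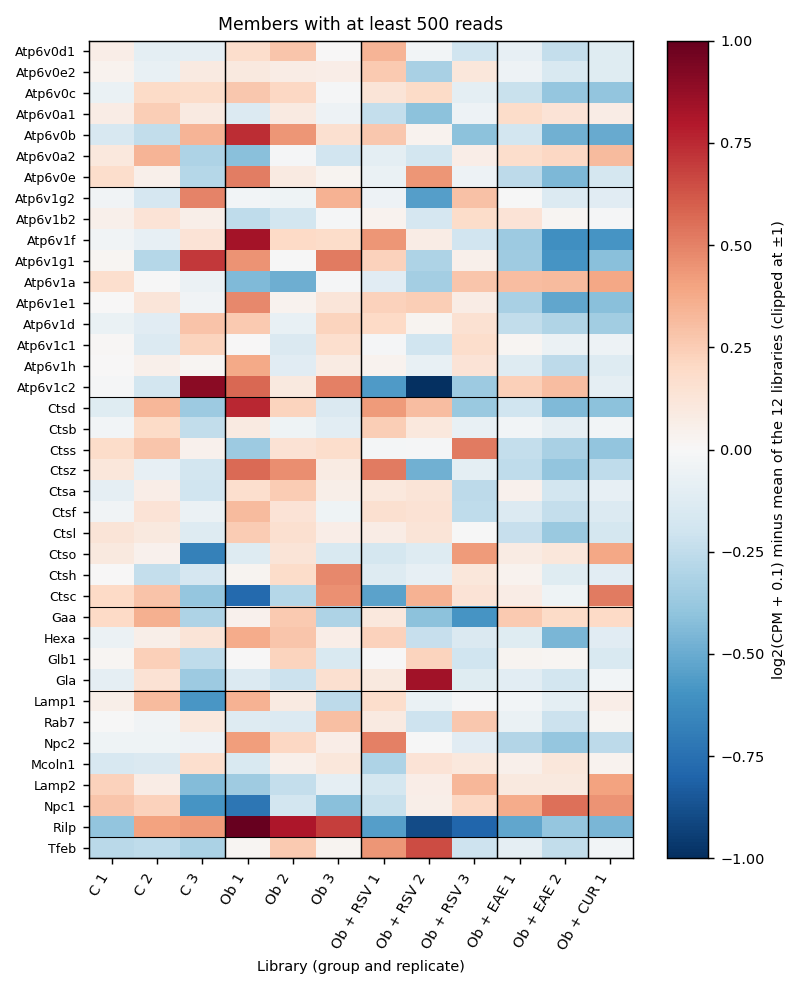
Heat map of the 39 members with at least 500 reads (lines, by role) in the 12 libraries (columns), as log2(CPM + 0.1) minus the mean of the gene over the 12 libraries, with the colour scale ending at 1 in either direction. The Ob + EAE and Ob + CUR columns are blue for Atp6v0b, Atp6v1f, Atp6v1g1 and Atp6v1e1 and red for Atp6v1a and Npc1.

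Against lean controls, Ob + EAE had no member called by edgeR or DESeq2, against 0.0138% of all genes by edgeR. At an unadjusted p under 0.05 there were 2 members (4.44%, both lower) against 4.35% of all genes, and 4 by DESeq2 (8.89%, against 4.18%). The libraries did not overlap for 16 members (35.6%, 14 lower) against 30.1% of all genes, and the median log2FC was -0.13 against 0.05, with 12 values above 0 and 33 below. Atp6v1g1 was at 73.7, 59.5 and 118 CPM in C (log2FC -0.68, SE 0.26, unadjusted p = 0.0137, adjusted p = 0.921). Atp6v1e1 was at 248, 270 and 242 CPM in C and at 198 and 173 CPM in Ob + EAE (log2FC -0.46, SE 0.22, unadjusted p = 0.0415, adjusted p = 1). Atp6v1f had a log2FC of -0.50 (SE 0.25, unadjusted p = 0.0509, adjusted p = 1), about the size of its difference between Ob and C with the opposite sign. Ctss was at 51.6, 55.2 and 46.8 CPM in C and at 38.5 and 36.4 CPM in Ob + EAE (log2FC -0.46, SE 0.23, unadjusted p = 0.0523, adjusted p = 1). Rilp had a log2FC of -0.68 (SE 0.60, unadjusted p = 0.266, adjusted p = 1).

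Differences in Ob + EAE followed the length of the genes. Over the 39 members with at least 500 reads, the correlation of log2FC (Ob + EAE vs. Ob) with the log2 of exon length was 0.66 (Pearson) and 0.63 (Spearman), and over 15056 genes with as many reads it was 0.47 and 0.54. Atp6v1f and Atp6v1g1, of 1063 and 1135 bases, lay at the short end and Npc1, of 11317 bases, at the long end. The members share their libraries, so these values describe the libraries and carry no p. In Ob vs. C the Pearson correlation had the opposite sign (-0.52 over the members and -0.33 over all genes), and in Ob + RSV vs. Ob it was 0.49 and 0.22. Against lean controls it was 0.67 and 0.43 in Ob + EAE vs. C, and 0.21 and -0.14 in Ob + RSV vs. C. When the trend of each library on length and GC content was removed, a step chosen after seeing the data, the correlation in Ob + EAE vs. Ob was 0.37 over the members and 0.26 over all genes. After it 14 members stood under an unadjusted p of 0.05, all lower (31.1%, against 10.2% of all genes that were lower and 14.3% in either direction). The median log2FC over all genes was then -0.085, against 0.05 before, and that of the members -0.28. Atp6v1f was at -0.91 (adjusted p = 0.0921) and the log2FC of Npc1 fell from 0.82 to 0.33.

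**Figure D4:**
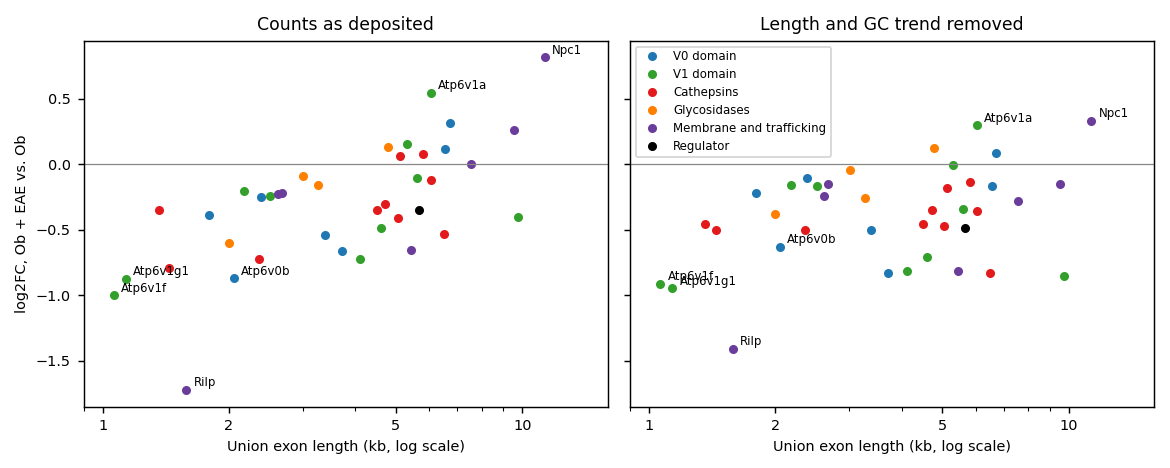
log2FC of Ob + EAE vs. Ob against union exon length in kilobases on a log axis for the 39 members with at least 500 reads, coloured by role, from the counts as deposited (left) and after removal of the length and GC trend (right). The Pearson correlation with log2 length is 0.66 on the left and 0.37 on the right, and Npc1 moves from 0.82 to 0.33.

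Markers of other cell types also moved with these libraries. The summed level of 4 endothelial genes, all of which had reads, was 35.4 to 93.2 CPM in C, Ob and Ob + RSV and 175 to 194 CPM in Ob + EAE and Ob + CUR. For 6 oligodendrocyte genes, all with reads, it was 6311 to 6804 CPM in Ob and 4991 to 5342 CPM in Ob + EAE, while 6 neuronal genes summed to 3149 to 3513 CPM and 3243 to 3398 CPM. The sum of 6 astrocyte genes, all with reads, was 1105 to 1956 CPM in Ob, 2152 to 2304 CPM in Ob + EAE and 2951 CPM in Ob + CUR. These genes did not all move the same way. In Ob + EAE, Aqp4, Gja1, Slc1a2 and Slc1a3 lay above every Ob library and Aldh1l1 lay within the Ob range. Gfap lay below it, at 124 and 108 CPM against 132 to 386 CPM in Ob. For 6 genes of meninges and fibroblasts, all with reads, it was 62.0 to 78.4 CPM in Ob, 114 to 124 CPM in Ob + EAE and 115 CPM in Ob + CUR, and 1 library of C reached 115 CPM as well. Among these genes Pdgfra was at 38.0 to 42.0 CPM in Ob and at 81.4 and 89.8 CPM in Ob + EAE. Col1a1 was also above every Ob library in Ob + EAE. Col1a2, Dcn and Slc6a13 stayed within their Ob range there, and Lum lay below it. The 14 hypothalamic genes summed to 1642 to 3352 CPM in Ob, 1163 to 1371 CPM in Ob + EAE and 454 CPM in Ob + CUR. They did not share a direction. Avp and Oxt were at 8.42 and 4.04 CPM in Ob + CUR, against 566 to 1464 and 362 to 734 CPM in Ob. Sim1 and Nkx2-1 were at 24.3 and 87.1 CPM in Ob + CUR, above every other library. In Ob + EAE, Avp and Oxt lay below every Ob library and Sim1 lay above. For the 11 microglial genes the sums were 294 to 337 CPM in Ob and 290 and 320 CPM in Ob + EAE. The part of cell makeup and of length in the differences of the members was not tested.

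The single Ob + CUR library was below the lowest Ob library for 24 members (53.3%, against 19.6% of all genes) and above the highest for 10 (22.2%, against 32% of all genes) and was not tested. It had 59.9 CPM of Atp6v1f, 109 CPM of Atp6v0b and 54.2 CPM of Atp6v1g1, all below every Ob library. Npc1 and Atp6v1a were at 73.6 and 478 CPM, above every Ob library. Rilp was at 1.59 CPM, in the range of the other treated libraries (1.15 to 1.67 CPM).

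Other genes of the pathway, from a list of 91 of which 89 could be tested, gave a wider view of the lysosome. In Ob + EAE vs. Ob, 24 of them had an unadjusted p under 0.05 (27%, against 13.4% of all genes), 12 in each direction, and 3 were called (3.37%, against 1.84% of all genes). Those 3 were lower in Ob + EAE: Lamtor4 (log2FC -1.40, adjusted p = 0.0132) and Lamtor2 (-1.33, adjusted p = 0.0146), subunits of the Ragulator scaffold that recruits mTORC1 to the lysosome, and the cathepsin inhibitor Cstb (-1.10, adjusted p = 0.0352). All 3 calls were lost without Ob replicate 1 (log2FC -0.97, -0.95 and -0.82, with edgeR's adjusted p of 0.194, 0.206 and 0.315 in the same order), without Ob + EAE replicate 2, without the 3 libraries with the fewest genes with reads, with filterByExpr and after removal of the length and GC trend. Those of Lamtor2 and Cstb were also lost without Ob + EAE replicate 1, and that of Cstb with the 2 groups alone, whereas the sign of all 3 held in each setting. Lamtor2 was at 106, 66.0 and 58.4 CPM in Ob and at 31.6 and 33.4 CPM in Ob + EAE. Wdr7, a partner of the pump in the brain, had an adjusted p of 0.0399 with a log2FC of 0.80, under the minimum for a call. In Ob vs. C, 4 of the 89 had an unadjusted p under 0.05 (4.49%, against 2.75% of all genes), 3 higher and 1 lower. In Ob + RSV vs. Ob it was 1 (1.12%, against 3.16%) and in Ob + RSV vs. C 0 (0%, against 2.87%). In Ob + EAE vs. C it was 7 (7.87%, against 4.35%), 2 higher and 5 lower, and edgeR called none of the list in these 4 comparisons. The median log2FC of the list lay between -0.04 and 0.03 in the 5 comparisons.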

How the data were processed

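RNA was extracted with TRIzol from hypothalamus, and poly(A) libraries were made with a stranded kit and sequenced as paired 150-base reads. The authors aligned reads with HISAT2 and counted them per gene with featureCounts. The deposited values are whole-number read counts per gene, not normalized, on GRCm39 per the labels. Which annotation was used, whether strand was counted and how multimapping reads were treated is not given in the sources used here.

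Gene symbols were matched by gene ID (51486 of 78334 IDs, 65.7%), and biotype, exon length and overlaps came from GENCODE M21 (GRCm38), so no gene coordinates are given beyond those of the RefSeq promoter table. Unused per-sample columns numbered 0. CPM are counts per 1000000 counted reads of a library. Genes with at least 10 reads were fitted with edgeR 4.0.16 (TMM scaling, quasi-likelihood test, group as the only term): C, Ob and Ob + RSV in 1 fit of 9 libraries with 6 residual degrees of freedom, and all 12 libraries (7 degrees of freedom) for Ob + EAE. The Benjamini-Hochberg adjustment ran over all genes tested. SE is the absolute log2FC over the root of F. Ob + CUR, with 1 library, was not tested. The script was tested on simulated data. Intervals and limits of detection would cover counting error only, and the depth of each library bounds precision for genes with few reads.

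All members are named with a level or a range. Full statistics are given for the 4 members with the smallest p in each comparison and for Rilp in all, and levels per library for the highest and lowest members and for paralogous subunits. Proteins that had been planned for printing are not shown. The members, lists and rules were chosen with earlier results of these data known. Replicate numbers of C, Ob and Ob + RSV were not treated as pairing the libraries, since not every same-numbered pair had a correlation above 0.1: same-numbered libraries had correlated deviations of -0.0261 to 0.329 over 9 pairs, and 4 of 9 were above 0.1. Alternatives covered RLE and upper quartile scaling, filters on low counts, DESeq2 1.42.0, other sets of libraries, the replicate block, single libraries left out, and a loess trend on length and GC content (span 0.5), the last added after seeing the data, as were the shares with Tcirg1.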

Additional observations from a re-analysis of the deposited data

How the results depend on the processing

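In Ob + EAE vs. Ob, 1 member was called. The number was 0 with upper quartile scaling, with filterByExpr, with a minimum of 1 read, with the 2 groups alone, without Ob + CUR, without the 3 libraries with the fewest genes with reads and after removal of the length and GC trend, and it ran from 0 to 2 when single libraries were left out (0 without Ob replicate 1, Ob + EAE replicate 1 or Ob + EAE replicate 2, and 2, with Atp6v0b added, without Ob replicate 3). Calls over all genes in it numbered 665, against 77 with filterByExpr, 1031 with a minimum of 1 read, 18 without Ob replicate 1, 228 and 19 without Ob + EAE replicate 1 and 2, 1173 without Ob replicate 3, 1 without the 3 libraries and 3 after removal of the trend. In Ob + EAE vs. C they numbered 5, against 133 with a minimum of 1 read, 30 by DESeq2, 22 with the 2 groups alone and 1 with filterByExpr.

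The median log2FC of the members moved by more than 0.0663 in a few settings. That value is the SD, between libraries of the same group, of the members' median log2 deviation from their mean. It served as a yardstick and not as a test. In Ob + RSV vs. Ob it was -0.08, against 0.0023 without the 3 libraries, -0.0168 after removal of the trend, and -0.1739 to -0.0255 with single libraries left out. In Ob + RSV vs. C it was 0.02, against 0.0904 and 0.1044 in the first 2 of these settings. In Ob + EAE vs. C it was -0.13, against -0.2087 with a minimum of 1 read, -0.2097 after removal of the trend, and -0.2246 to -0.0634 with single libraries left out. In Ob + EAE vs. Ob it was -0.24, with -0.289 to -0.1594. The causes were not tested. The members with full statistics kept their direction in every setting run.

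With a replicate block, 0 members were called in 4 comparisons and 1 in Ob + EAE vs. Ob, where calls over all genes rose from 665 to 1417, from 5 to 279 in Ob + EAE vs. C, and from 0 to 50, 10 and 35 in Ob vs. C, Ob + RSV vs. Ob and Ob + RSV vs. C. Of the 9 libraries of C, Ob and Ob + RSV, 7 correlated best with a library of their own number, a hint from the data and not from the design. Depth limits members such as Atp6v1b1, Atp6v0a4, Atp6v1e2, Ctsw and Atp6v1fnb, with 14 to 83 reads over all libraries.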
